A study of Mus musculus with 15 samples.

Results

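The 10 genes described here are Fos, Fosl1, Fosl2, Jun, Junb and Jund, which encode the FOS and JUN subunits of the transcription factor AP-1, Egr1, which encodes a zinc finger transcription factor, and Ier2, Ier3 and Ier5, which were named as immediate early response genes. They were taken by gene symbol, not by their values, from a table of 25239 genes, though earlier results of these data were known. All 10 were in the table, and all 10 were among the 17835 genes that passed the filter on low counts.

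The cells were ST2, a mouse bone marrow stromal cell line, and every library came from this line. Cells received medium alone or IL-17 at 200 ng/mL for 3 h, were then trypsinized and fixed with 1% formaldehyde, and RNA was precipitated with an antibody against Arid5a or with mouse IgG2b (RIP, RNA immunoprecipitation). Arid5a is an RNA-binding protein known to stabilise mRNAs of inflammatory genes, and the series set out to find the transcripts it binds. In medium there were 4 libraries for each antibody. With IL-17 there were 4 for Arid5a and 3, numbered 2 to 4, for IgG.

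Immediate early genes are transcribed within minutes of serum, growth factors, cytokines or mechanical and chemical stress, without the need for new protein synthesis, and their mRNAs are short-lived. FOS and JUN proteins pair to form AP-1, which in stromal and bone cells is known for the control of collagenases, proliferation and osteoblast genes. EGR1 is induced through serum response factor and its partners downstream of MAP kinases, and IL-17 is known to act in stromal cells through NF-kappa B, MAP kinases and the stabilisation of inflammatory mRNAs.

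With IL-17, the Fos and Egr1 transcripts recovered were fewer and the Ier3 transcript more abundant when both antibodies were averaged. The other 7 genes did not pass the threshold in that comparison, where 3.25% of all tested genes passed. Between antibodies, 1 gene, Ier5, passed in medium, where 0.628% of all tested genes did, and it was lower in the Arid5a precipitate. None of the 10 passed with IL-17, where 0.0673% of all tested genes did. The Ier3 and Ier5 calls held in only some of the alternatives described below. The 2 genes that moved in opposite directions with IL-17, Fos and Ier3, are shown by their promoters, since RefSeq windows of 250 bases before to 50 bases after the gene start were at hand for 7 of the 10 genes, these among them. Egr1, Fosl1 and Ier2 have no window here. Fos lies at chr12:85473890-85477274 and Ier3 at chr17:35821713-35822911 in GRCm38.p6, the assembly that mm10 names. The windows below are the plus strand at chr12:85473640-85473939 and chr17:35821463-35821762, which start upstream of each gene and end inside it. Capitals mark matches to the motifs searched.
Fos: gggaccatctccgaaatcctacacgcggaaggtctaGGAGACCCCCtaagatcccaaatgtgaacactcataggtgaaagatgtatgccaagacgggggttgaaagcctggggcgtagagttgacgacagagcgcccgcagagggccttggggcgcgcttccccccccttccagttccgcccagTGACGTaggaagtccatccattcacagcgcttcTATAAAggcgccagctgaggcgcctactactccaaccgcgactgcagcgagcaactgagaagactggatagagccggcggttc
Ier3: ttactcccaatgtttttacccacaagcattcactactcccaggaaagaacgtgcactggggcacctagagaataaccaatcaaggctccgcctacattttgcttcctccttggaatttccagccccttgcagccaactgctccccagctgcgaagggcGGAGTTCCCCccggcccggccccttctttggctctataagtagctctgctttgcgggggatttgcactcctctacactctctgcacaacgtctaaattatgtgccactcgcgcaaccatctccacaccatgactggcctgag

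The motifs searched on both strands were the kappa B consensus, TGANTCA (the AP-1 site), TGACGTCA and its shorter part TGACGT (cyclic AMP response element), the CArG box of serum response factor, and TATAAA. In the Fos window, counted from the gene start, a kappa B match began at -214, a TGACGT match at -66 and TATAAA at -33. The Ier3 window held 1 kappa B match, at -92, and no match to the other motifs. Of 32851 RefSeq windows of the same length, 8.46% held a kappa B match, 7.51% TGACGT, 13.6% TATAAA, 7.81% TGANTCA and 1.63% a CArG match. Of the other 5 windows, Fosl2 held 2 overlapping kappa B matches, Junb held TATAAA at its start, and Jun, Jund and Ier5 held no match.

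Library totals ran from 939139 to 5713913 counts, and IgG medium 2 was the shallowest. Earlier work on these data set IgG medium 2 and IgG IL-17 4 apart from the rest of their groups, so calls that rest on them are given with and without both. Arid5a IL-17 4 also differed from its group, with a TMM factor of 1.04 against 0.883 to 0.919 and a sum over the 10 genes of 700.7 CPM against 941 to 1105. Leaving it out took the number of all genes that passed with IL-17 in the Arid5a precipitate from 1008 to 2261 and in the interaction from 174 to 716, so the calls it changes are given without it. All 7 tested genes of a list of 10 IL-17-inducible genes were higher in every comparison of IL-17 with medium, Cxcl1 by 4.12 ± 0.20 (log2 fold ± SE) averaged over both antibodies as the treatment labels would have it. The 12 stromal markers differed widely in level. Col1a1 had a median of 7770 CPM and Cxcl12 of 1790, but Lepr 6.44, Eng 6.11, Alpl 3.63 and Thy1 2.77. The 7 haematopoietic markers summed to at most 19.8 CPM in a library, 4 endothelial markers to at most 40.5 CPM and 4 epithelial markers to at most 69.3 CPM. In none of these lists was a gene at 0 over a whole group. The labels do not say that replicates came from separate cultures, so the p-values measure the spread between these libraries, which may be technical. CPM below are counts relative to the library total, scaled with TMM factors, which correct the library totals for composition, and FPKM is the deposited value, scaled to gene length as well as depth. Where groups of libraries are said to lie apart, the share of all tested genes that do so was not computed.

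**Figure D1:**
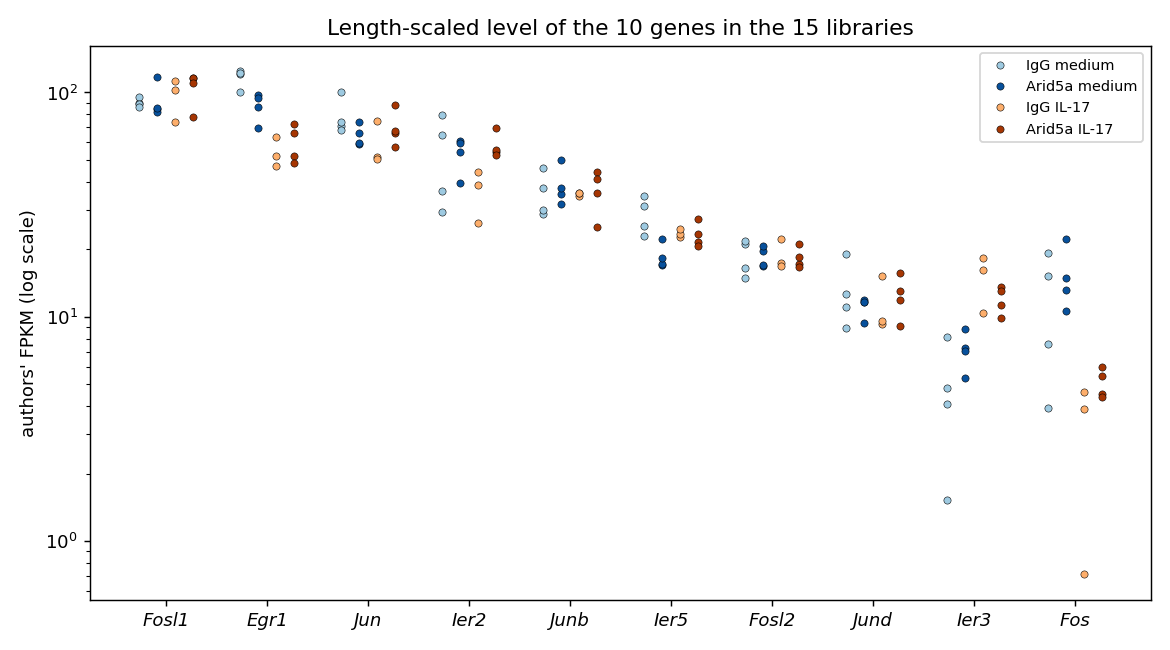
Deposited FPKM of each gene (log axis) in the 15 libraries, 1 point per library, coloured by antibody and treatment, with genes in order of their mean. Fosl1, Egr1 and Jun lie highest, and the Fos points split between medium and IL-17, with 1 IgG IL-17 library at 0.71 FPKM.

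On the length-scaled scale Fosl1, Egr1 and Jun were the most abundant of the 10 genes and Jund, Ier3 and Fos the least. Over the 15 libraries the mean was 95.8 FPKM for Fosl1 (range 74.2 to 117), 81.1 for Egr1 (46.9 to 125) and 68.5 for Jun (50.6 to 101). Ier2, whose product is a small nuclear regulator, followed at 51.0 FPKM, Junb at 36.6, Ier5 at 23.5 and Fosl2 at 18.5. Jund averaged 12.0 FPKM, Ier3 9.32 and Fos 9.08. In IgG medium Egr1 led at 117 ± 11.3 FPKM (SD, n = 4), above every value of Fosl1 there, which stood at 90.2 ± 4.08.

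The order of the levels differed between treatments mainly at Egr1, Ier3 and Fos. With IL-17 Egr1 ranked the third in both precipitates, at 54.0 ± 8.28 FPKM (SD, n = 3) with IgG and 59.7 ± 11.2 (SD, n = 4) with Arid5a, its range overlapping that of Jun above it. Fos ranked the ninth in IgG medium at 11.5 ± 7.01 FPKM and the eighth in Arid5a medium at 15.2 ± 4.95, with ranges that overlapped its neighbours. With IL-17 Fos was last in both precipitates, at 3.06 ± 2.07 FPKM with IgG and 5.08 ± 0.747 with Arid5a, below every value of the gene ranked next. Ier3 was last in medium, at 4.66 ± 2.73 and 7.11 ± 1.43 FPKM, and with IL-17 its values ran from 10.4 to 18.2 FPKM with IgG, and stood at 11.9 ± 1.70 FPKM with Arid5a. Most other neighbours in the order overlapped in range, among them Fosl1 and Jun in the 3 groups where they were adjacent.

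**Figure D2:**
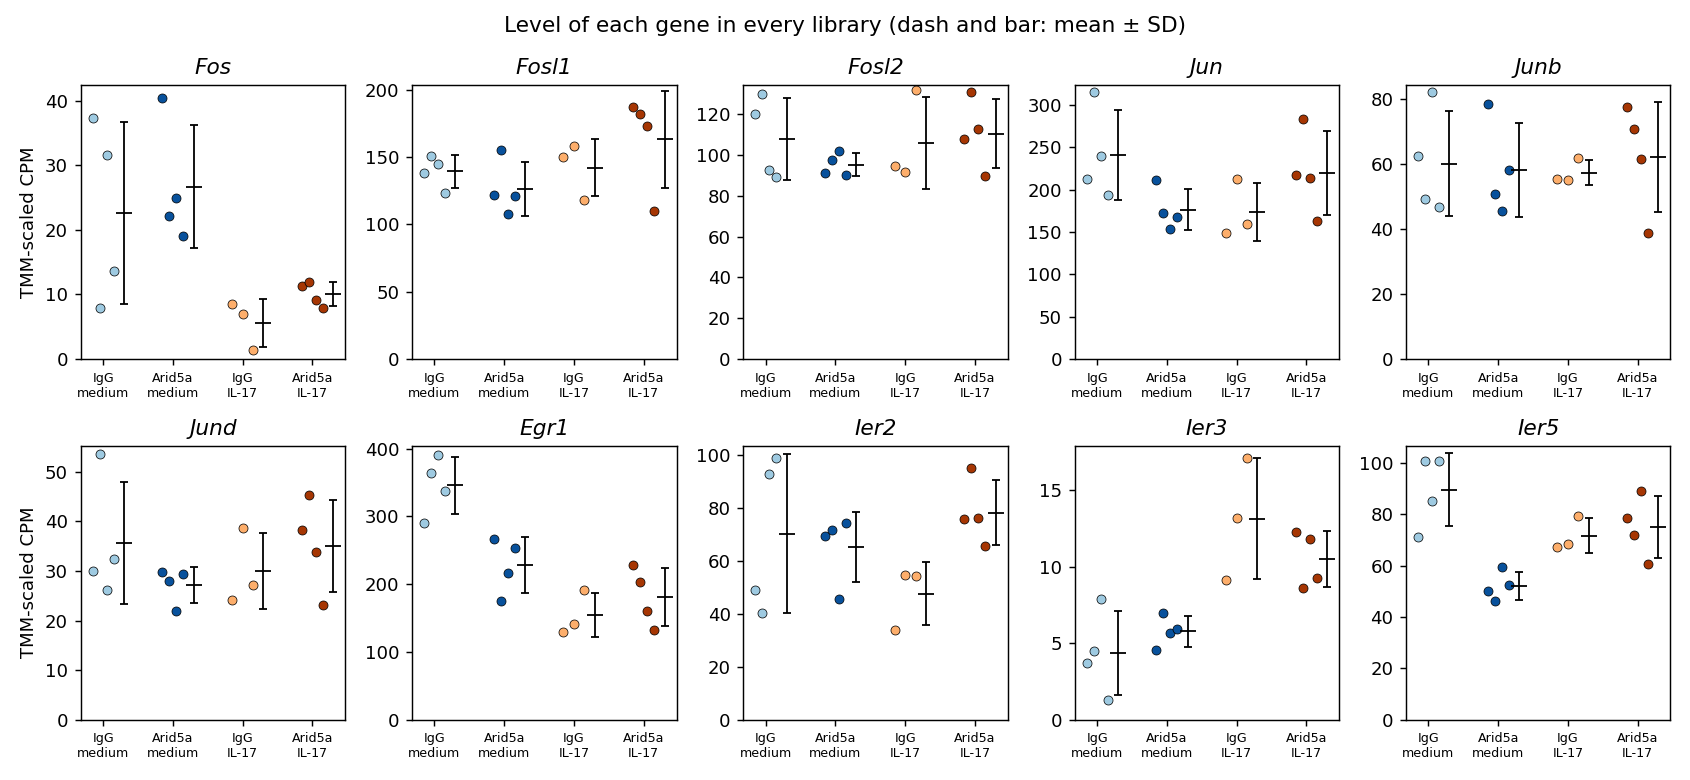
TMM-scaled CPM of each gene in every library (points) with the group mean and SD (dash and bar), 1 panel per gene with its own axis from 0. Fos lies between 7.89 and 12.0 CPM in the 4 Arid5a IL-17 libraries and between 19.1 and 40.5 in the 4 Arid5a medium libraries, and Egr1 is highest in IgG medium.

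Fos, the subunit that pairs with JUN proteins to form the classical AP-1 dimer, stood in IgG medium libraries 1 to 4 at 37.3, 7.83, 31.6 and 13.7 CPM, and in Arid5a medium libraries 1 to 4 at 40.5, 22.2, 24.9 and 19.1 CPM. With IL-17 it stood at 8.52, 6.97 and 1.43 CPM in IgG libraries 2 to 4, and at 11.3, 12.0, 9.14 and 7.89 CPM in Arid5a libraries 1 to 4. In the Arid5a precipitate every IL-17 library lay below every medium library. In the IgG precipitate the groups overlapped through the shallow medium library 2, whose 7.83 CPM rests on 7 counts, and the lowest value, IgG IL-17 4, rests on 3 counts. The counts over all libraries ran from 3 to 170.

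Averaged over both antibodies, Fos was 3.22-fold lower with IL-17 (log2 fold -1.69 ± 0.31 SE, adjusted p = 0.000898, edgeR). Fos was 1 of 3 genes of the 10 that passed in this comparison, where 3.25% of all tested genes did. Leaving out IgG medium 2 and IgG IL-17 4 together gave -1.59 ± 0.25 with an adjusted p of 2.47e-05, and all 25 alternatives, single libraries left out included, kept the call. In a bulk precipitate, fewer cells carrying a transcript and less transcript per cell cannot be told apart. Unprecipitated RNA was not analysed here, so the amount of a transcript in the cells and its recovery cannot be told apart either.

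Within each precipitate, the Fos call depended on single libraries. With Arid5a, Fos fell by 1.40 ± 0.40 on the log2 scale (adjusted p = 0.0312, edgeR), the only 1 of the 10 genes to pass against 5.65% of all genes. Without Arid5a IL-17 1, 2 or 3, or Arid5a medium 1, 2 or 3, the adjusted p lay between 0.0579 and 0.157. With IgG, Fos fell by 1.98 ± 0.47 (adjusted p = 0.0387), and Fos and Egr1 were the 2 of 10 that passed, against 0.493% of all genes. That Fos call held without Arid5a IL-17 4, IgG medium 2 or IgG medium 4, and for the other 12 libraries left out 1 at a time the adjusted p lay between 0.0524 and 0.225, the highest without IgG IL-17 4. Without both IgG medium 2 and IgG IL-17 4 the log2 fold was -1.82 with an adjusted p of 0.0221. Over 11 alternatives other than single libraries left out, the call held in 9 with Arid5a (adjusted p 0.000173 to 0.199) and in 3 with IgG (0.00413 to 0.452). The fall with IgG and that with Arid5a differed by 0.58 ± 0.60 on the log2 scale, with an adjusted p of 0.655 for that difference.

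Egr1, the serum-responsive zinc finger factor, stood at 291, 364, 391 and 337 CPM in IgG medium libraries 1 to 4 and at 267, 175, 216 and 254 CPM in Arid5a medium libraries 1 to 4. With IL-17 it stood at 130, 142 and 191 CPM in IgG libraries 2 to 4 and at 228, 204, 160 and 132 CPM in Arid5a libraries 1 to 4. IgG medium was the high group, and its 4 libraries lay above all 11 others. The Arid5a medium and Arid5a IL-17 libraries overlapped.

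Egr1 was 2.24-fold lower with IL-17 in the IgG precipitate (log2 fold -1.17 ± 0.18, adjusted p = 0.000441, edgeR) and 1.68-fold lower averaged over both antibodies (-0.75 ± 0.12, adjusted p = 0.000158). Both calls held in every alternative run, between -1.32 and -1.05 with IgG and between -0.89 and -0.68 for the average. In the Arid5a precipitate the log2 fold was -0.33 ± 0.16 with an adjusted p of 0.222. TMM factors placed the 5164 well-expressed genes (mean log2 CPM of at least 5) at a median log2 fold of 0.31 in that comparison. With factors computed from well-expressed genes, which bring this median to 0.00, Egr1 was at -0.65 with an adjusted p of 0.0101. It passed in 4 of 11 alternatives that left out no single library, with adjusted p-values from 0.0101 to 0.282. The average contrast uses the same libraries as the 2 contrasts within a precipitate, so it is not separate evidence.

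Ier3, an early response gene known as a target of NF-kappa B that acts on cell survival, stood in IgG medium libraries 1 to 4 at 3.73, 4.47, 7.91 and 1.27 CPM and in Arid5a medium libraries 1 to 4 at 4.54, 6.99, 5.69 and 5.93 CPM. With IL-17 it stood at 9.16, 13.2 and 17.1 CPM in IgG libraries 2 to 4 and at 12.3, 8.62, 11.8 and 9.30 CPM in Arid5a libraries 1 to 4. Every IL-17 library lay above every medium library, whichever the antibody. These values rest on 4 to 62 counts per library.

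Averaged over both antibodies Ier3 was 2.35-fold higher with IL-17 (log2 fold 1.23 ± 0.36, adjusted p = 0.0476, edgeR). Within a precipitate it was at 1.60 ± 0.54 (adjusted p = 0.196) with IgG and 0.86 ± 0.48 (adjusted p = 0.282) with Arid5a. By voom with quality weights Ier3 passed with Arid5a, where voom called 7498 of 17835 genes. The averaged call held without Arid5a IL-17 4, IgG IL-17 2, IgG medium 2 or IgG medium 3, and for the other 11 libraries left out 1 at a time the adjusted p lay between 0.0562 and 0.107. Without both IgG medium 2 and IgG IL-17 4 it was 0.0497. With factors from well-expressed genes the fold was 1.10 with an adjusted p of 0.11, and over 10 such alternatives, 5 of which kept the call, the adjusted p ran from 0.00854 to 0.11.

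**Figure D3:**
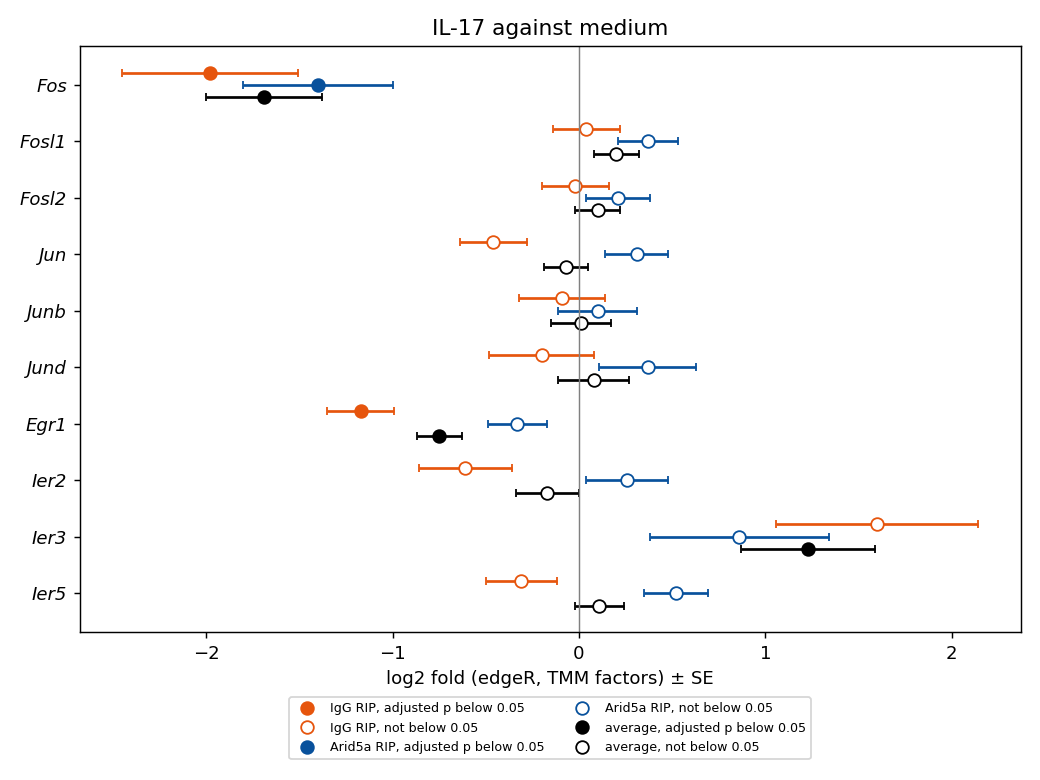
Log2 fold (± SE) of IL-17 against medium for each gene in the IgG precipitate (orange), the Arid5a precipitate (blue) and averaged over both (black), with filled symbols for an adjusted p below 0.05. Fos lies left of 0 in all 3, Egr1 is filled with IgG and in the average, and Ier3 lies right of 0 and is filled in the average.

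Among the JUN genes, which encode the AP-1 subunits that can also pair with each other, none passed by edgeR in the comparisons of IL-17 with medium. By voom with quality weights Jun and Jund passed within the Arid5a precipitate, where voom called 7498 of 17835 genes. Jun stood at 213, 315, 240 and 194 CPM in IgG medium and at 211, 173, 154 and 168 CPM in Arid5a medium, in the order of libraries 1 to 4. With IL-17 Jun stood at 149, 213 and 160 CPM with IgG and at 217, 284, 214 and 163 CPM with Arid5a. The groups overlapped for each treatment comparison, and the highest value was that of the shallow IgG medium 2. The averaged log2 fold was -0.07 ± 0.12, from -0.46 ± 0.18 with IgG (adjusted p = 0.309) and 0.31 ± 0.17 with Arid5a (adjusted p = 0.256).

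Junb, often an antagonist of JUN, had group means of 60.2 ± 16.3, 58.3 ± 14.4, 57.5 ± 3.85 and 62.2 ± 16.9 CPM (SD, in the order IgG medium, Arid5a medium, IgG IL-17, Arid5a IL-17; n = 4, 4, 3 and 4). Its averaged log2 fold was 0.01 ± 0.16. Jund, a JUN gene known for constitutive expression, ranged from 21.9 to 53.7 CPM over all libraries, and its averaged log2 fold was 0.08 ± 0.19. Jund was again highest in IgG medium 2.

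Across the 15 libraries the log2 CPM of Jun and Jund had a Pearson r of 0.85, and of 0.87 after each group's mean was removed. The next highest value was that of Egr1 and Junb within groups, 0.69, against 0.33 without removing the group means, while Egr1 and Ier3 went from -0.63 to 0.22 and Fos and Egr1 from 0.45 to -0.20. These correlations describe libraries that share depth and composition, and n is 15 for each. Jun and Jund were both highest in the shallow IgG medium 2, and no correlation was computed without that library.

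The FOS-related genes Fosl1 and Fosl2, whose proteins lack the strong activation domain of FOS, passed in none of the comparisons as fitted to all 15 libraries with edgeR. In medium Fosl1 stood between 123 and 151 CPM with IgG and between 108 and 155 with Arid5a, and with IL-17 between 118 and 158 and between 110 and 187, and all these ranges overlapped. Its log2 fold with IL-17 was 0.04 ± 0.18 with IgG and 0.37 ± 0.16 with Arid5a (adjusted p = 0.173), and the latter was 0.05 with factors from well-expressed genes. Without Arid5a IL-17 4 that Arid5a value passed, at 0.51 with an adjusted p of 0.0223, and by voom with quality weights it passed at 0.49 with an adjusted p of 0.000731. Fosl1 was the only 1 of the 10 whose deposited counts were not whole, in all 15 libraries. It was also the only 1 whose RefSeq model overlaps another, Ccdc85b. Whether its counts include reads shared with Ccdc85b was not tested. Fosl2 lay between 89.5 and 132 CPM in all libraries, with log2 folds of -0.02 ± 0.18 and 0.21 ± 0.17 with IgG and Arid5a.

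Ier2 and Ier5, the remaining early response genes, had IL-17 folds of opposite sign in the 2 precipitates, none of which passed the threshold. Ier5, whose product is known to act with heat shock factor HSF1, had a log2 fold of -0.31 ± 0.19 with IgG (adjusted p = 0.569) and 0.52 ± 0.17 with Arid5a (adjusted p = 0.0674). Ier2 had a log2 fold of -0.61 ± 0.25 with IgG (adjusted p = 0.347) and 0.26 ± 0.22 with Arid5a (adjusted p = 0.491). With factors from well-expressed genes the Arid5a values were 0.21 for Ier5 and -0.05 for Ier2. Without Arid5a IL-17 4 the Ier5 value was 0.61 with an adjusted p of 0.0211, and it also passed without IgG IL-17 3 (adjusted p = 0.0483), IgG IL-17 4 (0.0371) or IgG medium 2 (0.0319). Without both IgG medium 2 and IgG IL-17 4 the Ier5 value was 0.55 with an adjusted p of 0.0205. It passed too in a fit on the compared libraries alone (0.49, adjusted p = 0.0193) and by voom with quality weights (0.58, adjusted p = 0.00091).

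Within the Arid5a precipitate, where Fos alone of the 10 genes passed by edgeR, the medians of other summed signals also differed between IL-17 and medium. The summed olfactory and vomeronasal receptor genes (1492, which stromal cells are not known to express) had a median of 3680 CPM in medium (range 3220 to 4750, 15 of the genes at 0 over the group) and 1730 with IL-17 (1400 to 4040, 20 at 0). The 12 stromal markers summed to a median of 11500 CPM in medium (10500 to 13300) and 15100 with IL-17 (11400 to 16500). Their median log2 fold was 0.23, and -0.07 with factors from well-expressed genes. The ranges overlapped for both lists, and their part in these results was not tested.

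The median log2 fold of the 10 genes with IL-17 was -0.26 with IgG and 0.29 with Arid5a, against 0.00 and -0.12 over all tested genes, and -0.04 and 0.31 over the well-expressed genes. For the average it was 0.04 against -0.05. Counted without adjustment, 5 of the 10 had p below 0.05 with IgG, where 11.1% of all genes did, and 4 with Arid5a, where 22.3% did. For the average it was 3 of 10 against 16.4%.

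Between antibodies in medium, Ier5 was the 1 gene of the 10 that passed, against 0.628% of all tested genes. It stood at 71.4, 101, 85.2 and 101 CPM in IgG libraries 1 to 4 and at 50.3, 46.4, 59.6 and 52.6 CPM in Arid5a libraries 1 to 4. Every Arid5a medium library lay below every IgG medium library. The transcript was 1.70-fold lower in the Arid5a precipitate (log2 fold -0.77 ± 0.18, adjusted p = 0.0363, edgeR).

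That call held only without Arid5a IL-17 4, IgG IL-17 3, IgG IL-17 4 or IgG medium 1, and for the other 11 libraries left out 1 at a time the adjusted p lay between 0.0503 and 0.193. Well-expressed genes had a median log2 fold of -0.19 in this comparison, and with factors computed from them Ier5 was at -0.59 with an adjusted p of 0.176. Without both IgG medium 2 and IgG IL-17 4 the log2 fold was -0.71 with an adjusted p of 0.067. Over 11 alternatives other than single libraries left out, 3 kept the call and the adjusted p ran from 0.00493 to 0.204. Egr1 was next, at -0.60 ± 0.16 with an adjusted p of 0.0767, and its Arid5a medium libraries also lay below all IgG medium libraries. Without IgG medium 1 it passed as well, with an adjusted p of 0.0307. Jun was at -0.43 ± 0.17 (adjusted p = 0.253), and -0.28 without IgG medium 2. Counted without adjustment, these 3 of the 10 had p below 0.05, where 12.8% of all genes did.

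Other signals also differed between the antibodies in medium. The summed CPM of the 1492 olfactory and vomeronasal receptor genes lay between 1980 and 3070 with IgG and between 3220 and 4750 with Arid5a, with 80 and 15 of these genes at 0 over the whole group. The summed CPM of the 12 stromal markers lay between 14800 and 15700 with IgG and between 10500 and 13300 with Arid5a. Col1a1 made up much of these sums, with means of 8960 and 6430 CPM. The median log2 fold of the 12 markers was -0.20, and -0.03 with factors from well-expressed genes. The sums did not overlap for either list, and their part in the lower Ier5, Egr1 and Jun values was not tested.

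With IL-17, none of the 10 genes passed between antibodies by edgeR, where 0.0673% of all genes did. By DESeq2 the count was also 0, by voom with quality weights 1 (Ier2; voom called 572 of 17835 genes here), and 1 gene, again Ier2, had an unadjusted p below 0.05, where 8.95% of all genes did. Ier2 stood at 33.9, 54.4 and 54.3 CPM in IgG IL-17 libraries 2 to 4. In Arid5a IL-17 libraries 1 to 4 it stood at 75.7, 94.8, 76.0 and 65.4 CPM. Every Arid5a library lay above every IgG library for Ier2, which is a description of few libraries and not a test. In medium its IgG libraries spread from 40.2 to 98.8 CPM and covered the Arid5a range of 45.5 to 74.2. The log2 fold with IL-17 was 0.73 ± 0.25 (adjusted p = 0.372), and 0.57 with factors from well-expressed genes. Fos was at 0.76 ± 0.47 (adjusted p = 0.657), with overlapping groups, and the other 8 lay between -0.31 and 0.34.

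**Figure D4:**
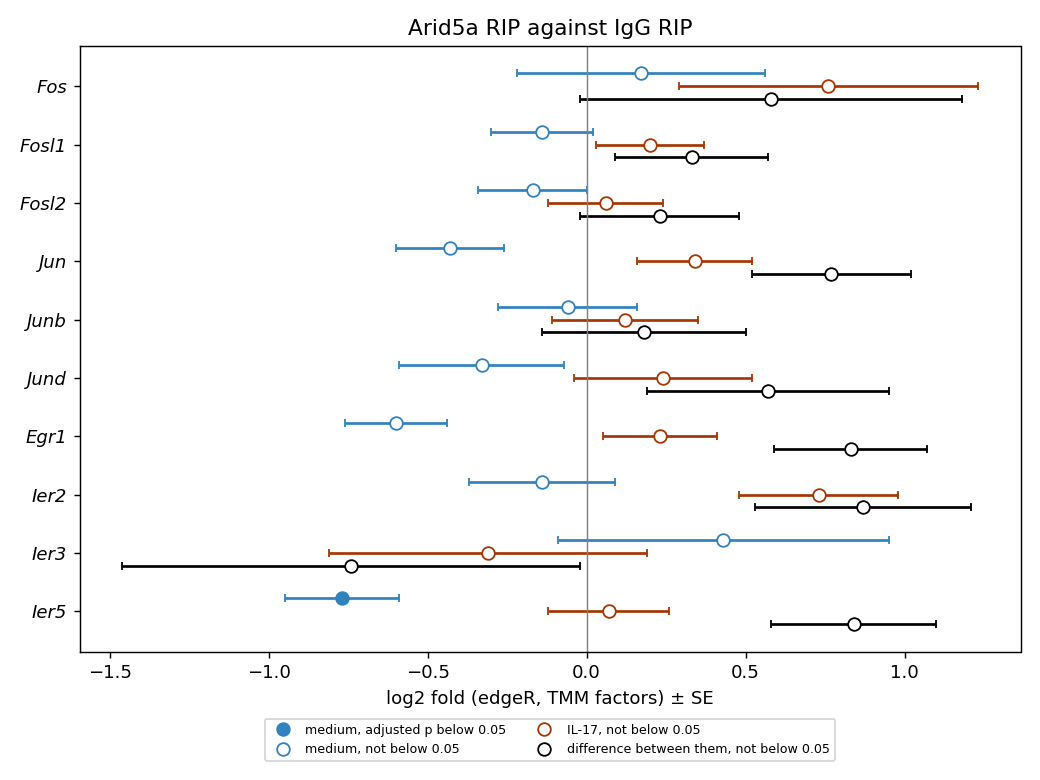
Log2 fold (± SE) of Arid5a against IgG for each gene in medium and with IL-17, with a filled symbol for an adjusted p below 0.05. Black symbols give the difference between both. Ier5 in medium is the only filled symbol, and 8 of the 10 genes lie below 0 in medium and 9 above 0 with IL-17, which become 4 and 6 with factors from well-expressed genes.

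The precipitated protein's own transcript, Arid5a, passed in none of these comparisons. Between antibodies it was at -0.07 ± 0.37 in medium and -0.17 ± 0.38 with IL-17. Its log2 fold with IL-17 averaged over both antibodies was 0.40 ± 0.27 (adjusted p = 0.467).

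The Arid5a against IgG difference itself was compared between IL-17 and medium as the interaction of antibody and treatment. None of the 10 genes passed by edgeR, where 0.976% of all genes did, while DESeq2 called 0 and voom with quality weights 4 (Jun, Egr1, Ier2 and Ier5). Voom called 1757 of all 17835 genes in this comparison and DESeq2 394. Without adjustment 4 had p below 0.05, where 16.3% of all genes did. These were Ier2 at 0.87 ± 0.34 (adjusted p = 0.187), Ier5 at 0.84 ± 0.26 (0.0992), Egr1 at 0.83 ± 0.24 (0.0817) and Jun at 0.77 ± 0.25 (0.105). The median over the 10 was 0.58 against -0.05 over all tested genes, but well-expressed genes had a median of 0.35, and with factors computed from them the same 4 were at 0.54, 0.50, 0.49 and 0.42. Without Arid5a IL-17 4, Egr1, Ier5 and Jun passed (716 of all 17608 genes did), and without IgG medium 1 the count was 2 (444 of 17710). Without both IgG medium 2 and IgG IL-17 4, Egr1 passed at 1.01 ± 0.26 with an adjusted p of 0.041.

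Other genes of the pathway were taken from lists that hold no member of the 10. Of 10 tested genes among 12 other AP-1 family genes, 1 was lower and none higher with IL-17 in the average. This was Fosb, the closest relative of Fos, at 26.8 ± 10.3 CPM in IgG medium, 23.6 ± 6.15 in Arid5a medium, 8.10 ± 7.20 with IgG and IL-17 and 12.6 ± 1.59 with Arid5a and IL-17 (SD; n = 4, 4, 3 and 4). Its averaged log2 fold was -1.28 ± 0.29 (adjusted p = 0.00864), and -1.41 with factors from well-expressed genes. With IgG and IL-17 its values ran from 0.952 to 15.3 CPM. Within either precipitate alone, no gene of the list passed with IL-17. The median of the list in the average was 0.04, against -0.05 over all genes, and -0.10 with the other factors.

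Of 11 genes around EGR factors and serum response factor, 1 was higher and none lower in the average. This was Nab1, a corepressor that binds EGR proteins, at 66.5 ± 13.8, 82.1 ± 7.67, 104 ± 18.1 and 158 ± 13.4 CPM in the same order of groups (log2 fold 0.78 ± 0.12, adjusted p = 6.09e-05). Of 36 other immediate early genes, 4 were higher and none lower, where 3.25% of all genes passed. Plk2, a stress-responsive kinase, led at 1.25 ± 0.14 (adjusted p = 1.51e-07), followed by Errfi1, a feedback inhibitor of the EGF receptor, at 0.83 ± 0.15, and Ccn2, a matricellular growth factor of connective tissue, at 0.62 ± 0.09. The fourth was Phlda1, named here after its values were seen, and its averaged fold is not given with either set of factors. In the Arid5a precipitate, where 5.65% of all genes passed, 6 of the 36 were higher, Phlda1 among them at 0.95 ± 0.21 (0.64 and an adjusted p of 0.0989 with the other factors), and in the IgG precipitate Plk2 was higher. With factors from well-expressed genes Plk2, Errfi1, Ccn2, Nab1 and Fosb kept an adjusted p below 0.05, and Ccn2 had the lowest fold of them in size, 0.48.

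Among 16 tested MAP kinase pathway genes, 1 was higher, Rps6ka3 at 0.52 ± 0.15 (adjusted p = 0.0454), and it was at 0.37 with an adjusted p of 0.145 under the other factors. Of 9 tested textbook AP-1 targets, 2 were higher and none lower. These were Cd44, a hyaluronan receptor, at 0.69 ± 0.12 (adjusted p = 0.000318) and Hmox1, haem oxygenase, at 0.59 ± 0.11 (adjusted p = 0.00115). The median of that list was 0.24, and 0.09 with the other factors.

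Heat shock and handling response genes were followed because the cells were trypsinized before fixation. Of 8, 1 was higher with IL-17 in the average, Hsph1 at 0.45 ± 0.11 (adjusted p = 0.0143), with an adjusted p of 0.069 under the other factors. In the Arid5a precipitate 3 of the 8 were higher with IL-17, Hsp90aa1 at 0.57 ± 0.11 (adjusted p = 0.00101), Hsph1 at 0.50 ± 0.15 (0.0346) and Bag3 at 0.49 ± 0.15 (0.0498), and under the other factors they were at 0.27, 0.20 and 0.19, none with an adjusted p below 0.05. Hsp90aa1 also passed in the interaction, at 0.62 ± 0.16 (adjusted p = 0.0436, and 0.298 under the other factors). None of the 8 passed with IL-17 in the IgG precipitate. The 8 summed to 4130 to 4630 CPM in Arid5a medium and 5100 to 5940 with Arid5a and IL-17, without overlap, in the comparison where Fos was lower. Hsp90aa1 made up much of these sums, with means of 2010 and 2990 CPM. The median log2 fold of the 8 in that comparison was only 0.03, and -0.28 under the other factors. In the average it was -0.09. In the IgG precipitate, where Fos and Egr1 were lower, the 8 summed to 4810 to 5320 CPM in medium and 4790 to 5030 with IL-17, which overlap. No gene of the list was at 0 over a whole group, and its part in the results was not tested.

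The genes whose log2 CPM over the 15 libraries was most like that of each of the 10 were sought among 5157 well-expressed genes. For Fos they were Dhrs3 (Pearson r 0.86) and Hoxc10 (0.84), for Egr1 S100a16 and Kitl (0.90 each), and for Ier3 Rtf2 (0.88) and Ccdc59 (0.85). For Jun they were Pfn1 and H2az1 (0.89 each), for Junb Pold2 (0.89) and Vim (0.86), and for Jund Lrpprc (0.90) and Dohh (0.89). The likeness of the other 4 genes to their 2 nearest ranged from 0.82 to 0.90. All these values are the highest of 5157 for their gene, so they are high by selection. They describe 15 libraries that share groups and depth.

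**Figure D5:**
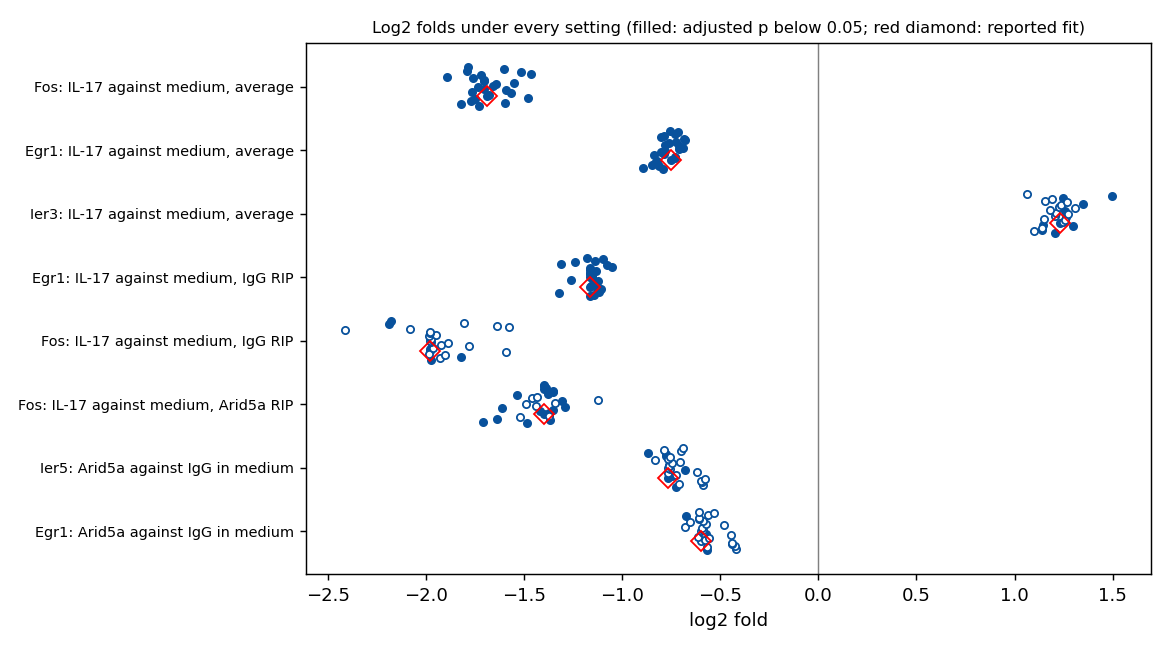
Log2 fold of 8 results under every processing alternative and with each library left out (points), with the reported value as a red diamond and filled points for an adjusted p below 0.05. All points of Fos and Egr1 in the average and of Egr1 in the IgG precipitate are filled, while the other 5 results hold both filled and open points.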

How the data were processed

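The authors deposited expected counts per gene (RSEM estimates, unnormalised) and FPKM for 15 libraries. The submitters' processing notes name the mm10 build, R 4.3.0, DESeq2 1.36.0, RSEM 1.3.1 and STAR 2.7.9. What each tool did, which annotation was counted and whether strand was used is not given in the sources used here. Between 2.66% and 10.3% of a library's deposited expected counts were not whole, and they were rounded. Genes passing filterByExpr (17835 of 25239) were scaled with TMM and fitted with edgeR 4.0.16 (R 4.3.3; robust quasi-likelihood F test, 4 group means, all 15 libraries), and p-values were adjusted over all tested genes (Benjamini-Hochberg). A gene passed at an adjusted p below 0.05, and SE is the log2 fold divided by the square root of F. FPKM was used as deposited, for levels between genes. Positions and promoter windows are RefSeq's (GRCm38.p6).

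The 10 genes, the lists and the alternatives were chosen with earlier results of these data known. All 10 genes are described; for each list and comparison up to 3 genes that passed were named, by smallest p, and for each of the 10 the 2 genes most like it. Alternatives were other scaling factors, DESeq2 1.42.0, limma 3.58.1 (voom with quality weights; log2(FPKM + 1) and log2(FPKM + 0.1)), no filter, a fit on the compared libraries alone, a block for the replicate number, and libraries left out. The labels do not say whether replicate numbers pair libraries. The correlation of deviations exceeded 0.1 in 1 of 21 same-number pairs. Pairs with different numbers were not compared, so this cannot show that pairing is absent.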

Additional observations from a re-analysis of the deposited data

How the results depend on the processing

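The lower Fos in the average and the lower Egr1 in the average and with IgG kept their direction and an adjusted p below 0.05 in every alternative run. The count of the 10 genes that passed changed elsewhere. For Arid5a against IgG in medium it was 2 (Egr1 and Ier5) by DESeq2 (327 of all 17835 genes) and by voom with quality weights (120). It was 0 with factors from well-expressed genes, library totals, upper-quartile factors, either FPKM scale or only the libraries compared. It was also 0 with joint removal of 2 libraries (IgG IL-17 4 with IgG medium 2) or a replicate block. With single libraries left out it ran from 0 to 2, and over all genes from 0 to 350. With IL-17 voom gave 1 (572 of all genes). For IL-17 within the Arid5a precipitate the count was 2 with factors from well-expressed genes (322 of all genes), library totals (305) and upper-quartile factors (321). It was also 2 with only the libraries compared (2976 of 15775) and after the joint removal (2599 of 19071). By voom it was 7 (which called 7498 of all 17835 genes), and on either FPKM scale 0. With single libraries left out it ran from 0 to 3, and over all genes from 308 to 2261. Within the IgG precipitate it was 1 under the same 3 scaling factors (104, 110 and 105 of all genes). It was also 1 on log2(FPKM + 1) (45) and log2(FPKM + 0.1) (40). The count was 1 too with only the libraries compared (16 of 15212), by voom (45) and with a replicate block (66). With single libraries left out it ran from 1 to 2, and over all genes from 46 to 257. For the interaction it was 1 after the joint removal (305 of 19071 genes) and 4 by voom (1757 of all genes). With single libraries left out it ran from 0 to 3, and over all genes from 0 to 716. The replicate block changed no other count by over 1.5 times. In the average, folds near 0 changed sign. With factors from well-expressed genes Fosl2 was at -0.048, Junb at -0.137, Jund at -0.063 and Ier5 at -0.038. With library totals Fosl2 was at -0.0056, Junb at -0.089 and Jund at -0.015, and with upper-quartile factors Junb was at -0.082 and Jund at -0.0028. On log2(FPKM + 0.1) Junb was at -0.034 and Jund at -0.0155, on log2(FPKM + 1) they were at -0.0337 and -0.014, and by DESeq2 Junb was at -0.030. After the joint removal Jun was at 0.040 and Junb at -0.041, and by voom Jun was at 0.0078. With single libraries left out Junb ran from -0.052 to 0.10 and Jun from -0.15 to 0.0065. The cause was not tested. Over all genes the number that passed varied with the alternative, single libraries left out aside: in the average it ran from 182 to 1368, within the Arid5a precipitate from 75 to 7498, within the IgG precipitate from 16 to 315, in medium from 0 to 327, with IL-17 from 0 to 572 and for the interaction from 0 to 1757, against 580, 1008, 88, 112, 12 and 174. Counts as low as 3 for Fos and 4 for Ier3 in single libraries limit the precision of both.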
